A study of Homo sapiens with 2 samples.

Results

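The phosphatidylinositol 3-kinase-like kinases (PIKKs) are very large proteins that resemble lipid kinases but phosphorylate other proteins, and their mRNAs were followed here into an immunoprecipitate of the RNA-binding protein CNBP. All 6 human members, PRKDC, ATM, ATR, MTOR, SMG1 and TRRAP, were taken by symbol together with 3 partners of mTOR, RPTOR, RICTOR and MLST8. These 9 genes each had 1 row among the 10836 rows of the gene table. The set was chosen by the ratio of RIP over input level, with PRKDC among the highest of all genes, so the ratios below describe these mRNAs and test nothing.

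HCT116 is an established human colon cancer cell line, grown here without any drug or genetic change. Cells were irradiated with ultraviolet light (200 mJ per square centimetre at 254 nm) to fix proteins to RNA, homogenized and sonicated, and CNBP was precipitated with an antibody on beads. The 2 groups were RNA from the precipitate (CNBP RIP, 1 library) and input RNA from HCT116 (1 library). With 1 library per group no spread and no test can be given, and neither of the 2 libraries was made with a control antibody. Levels are FPKM (fragments per kilobase of transcript, scaled to the mapped fragments of the library), so they can be compared between genes of different length, although the number of reads behind them is unknown. The sum over all genes was 109684 FPKM for the RIP library and 214387 FPKM for the input library. Of 9 epithelial marker genes 7 had a row, with 5 past 1.5-fold downward in the RIP and 1 upward. Of all rows, 34.7% were past 1.5-fold downward and 42.6% upward. With both libraries rescaled to a common sum, the median log2 ratio of the 7 rows moved from -1.50 to -0.53. KRT8 and KRT18, at -0.47 and -0.53, were then within 1.5-fold. KRT18 had 199 FPKM in the RIP and 564 FPKM in the input, CDH1 had 3.88 FPKM in the RIP and 0.415 FPKM in the input, and CLDN4 was listed at 0 in the RIP with 21.8 FPKM in the input. Of 9 markers of blood, endothelial, fibroblast and liver cells only COL1A1 (4.92 FPKM in the RIP and 0.199 FPKM in the input) and ALB (0 FPKM in the RIP and 0.718 FPKM in the input) had one.

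PIKKs watch over the genome, the transcriptome and the supply of nutrients. DNA-PKcs, the product of PRKDC, joins broken DNA ends with the Ku proteins, ATM answers to double-strand breaks, and ATR answers to stalled replication. SMG1 phosphorylates UPF1 when an mRNA with a premature stop codon is to be degraded. mTOR drives growth in a complex with raptor (the product of RPTOR) and in another with rictor (RICTOR), both of which hold the small propeller protein MLST8. TRRAP has the fold of a kinase without its activity and serves as a scaffold in the histone acetylation complexes SAGA and TIP60.

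CNBP is known to bind G-rich RNA, and GGAG is a core motif that the study examined. The first 50 transcribed bases at RefSeq start sites (build GRCh38.p14, whereas the gene table is on hg19) were therefore searched for GGAG, and its reverse complement CTCC was counted as well. Starts of 6 of the 9 genes were searched, and PRKDC, TRRAP and MLST8 were not among them. Whether a start of PRKDC, TRRAP or MLST8 holds GGAG was not tested. GGAG was present at 1 start each of ATM (3 matches, the first of them shown), ATR and SMG1, which are shown in the sense of the mRNA with the motif in capitals, and at neither the other start of ATM nor those of MTOR, RPTOR and RICTOR.
ATM, bases 7 to 36, chr11:108223073-108223102, plus strand: ctgcgtggctaacGGAGaaaagaagccgtg
ATR, bases 21 to 50, chr3:142578684-142578713, minus strand: agcctcagcatgggggaacatggcctGGAG
SMG1, bases 7 to 36, chr16:18926373-18926402, minus strand: cgtgtgagcgtgaGGAGctgccgccaccgc
Among the 35116 RefSeq starts searched, 36.6% held GGAG and 29.6% held CTCC in the same window. CTCC was at 4 of the 7 starts searched for these genes. A match of 4 letters is a description of the sequence, not a binding site.

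The mRNAs of all 6 kinases were higher in the RIP than in the input. Ratios were formed as log2(RIP FPKM + 1) - log2(input FPKM + 1), and 4-fold (a log2 ratio of 2) and about 1.5-fold (0.58) served as rules of size. PRKDC, TRRAP, SMG1 and MTOR were at least 4-fold higher, whereas ATR and ATM were at least 1.5-fold higher only. Over the whole table, 12.5% of rows passed the 4-fold rule in this direction and 42.6% the 1.5-fold rule, and nothing is read from the 4 and 6 of 6 kinases beside these shares, since this contrast chose them. The median of the 6 kinases was 3.00, that of all rows 0.28 and that of all rows below 0.5 FPKM in the input 1.16.

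PRKDC (ENSG00000253729.7_2, chromosome 8, 48685669 to 48872743, minus strand, hg19) had 78.3 FPKM in the RIP and 0.445 FPKM in the input. Its log2 ratio was 5.78, or 54.8-fold on the FPKM plus 1 scale, which was the 7th highest of all rows. PRKDC alone made up 66.2% of the summed RIP level of the 6 kinases. Its mRNA was at percentile 98.1 of all rows in the RIP and at percentile 20.6 in the input.

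TRRAP (ENSG00000196367.12_2, chromosome 7, 98475556 to 98610866, plus strand) came next with 17.3 FPKM in the RIP and 0.385 FPKM in the input, a log2 ratio of 3.73. SMG1 (ENSG00000157106.12, chromosome 16, 18816175 to 18937776, minus strand) had 8.38 FPKM in the RIP and 0.0903 FPKM in the input, a log2 ratio of 3.10. Chromosome 16 carries 7 pseudogenes named after SMG1, none of which has a row in the table, so reads of SMG1 and of these copies may have been shared and its level is uncertain. MTOR (ENSG00000198793.12_2, chromosome 1, 11166592 to 11322564, minus strand) had 10.7 FPKM in the RIP and 0.570 FPKM in the input, a log2 ratio of 2.90. MTOR thus exceeded SMG1 in the RIP but lay below it by ratio, with less SMG1 than MTOR in the input.

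The kinases of the DNA damage checkpoints had the lowest ratios of the family. ATR (ENSG00000175054.14_2, chromosome 3, 142168077 to 142297668, minus strand) had 2.58 FPKM in the RIP and 0.161 FPKM in the input, a log2 ratio of 1.62. ATM (ENSG00000149311.17_1, chromosome 11, 108093211 to 108239829, plus strand) had 0.987 FPKM in the RIP and 0.0588 FPKM in the input, a log2 ratio of 0.91. The locus of ATM overlaps C11orf65 over 60584 bases and NPAT over 159 bases, both on the opposite strand. C11orf65 had 0.764 FPKM in the RIP and 0.347 FPKM in the input, and although the library kit marks strand, no source used here says whether strand was used in counting. In the RIP the level of PRKDC was 79.3 times that of ATM, while in the input the highest kinase, MTOR, was 9.70 times the lowest, ATM.

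**Figure D1:**
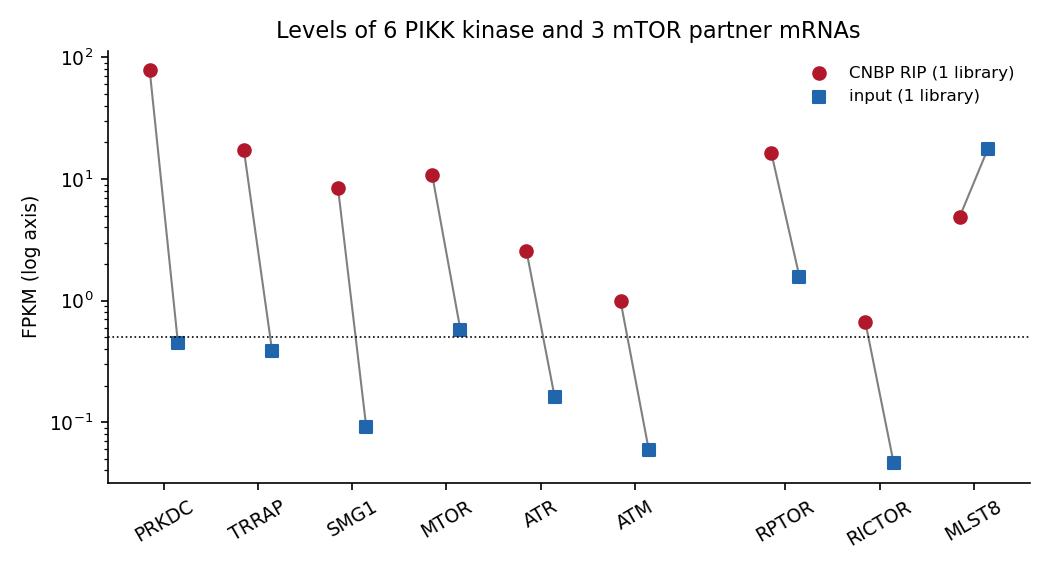
FPKM (log axis) of the 6 PIKK kinases, left, and the 3 mTOR partners, right, with 1 point for the CNBP RIP library (circle) and 1 for the input library (square). All kinases lie higher in the RIP, MLST8 lies lower there, and the dotted line is at 0.5 FPKM, below which 5 kinases and RICTOR fall in the input. Genes below the line in the input entered the table only through the RIP and could not lie lower there.

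The partners of mTOR did not share a direction. RPTOR (ENSG00000141564.13_1, chromosome 17, 78518619 to 78940171, plus strand) had 16.5 FPKM in the RIP and 1.57 FPKM in the input, a log2 ratio of 2.77, close to that of MTOR. RICTOR (ENSG00000164327.12_2, chromosome 5, 38938021 to 39074510, minus strand) had 0.661 FPKM in the RIP and 0.0461 FPKM in the input, a log2 ratio of 0.67. OSMR, on the opposite strand, shares 7678 bases with the locus of RICTOR, and was listed at 0 in the RIP and at 0.763 FPKM in the input. MLST8 (ENSG00000167965.17_2, chromosome 16, 2254249 to 2259417, plus strand) had 4.87 FPKM in the RIP and 17.7 FPKM in the input, a log2 ratio of -1.67. MLST8 shares 164 bases with BRICD5 on the opposite strand, which had 1.30 FPKM in the RIP and 0.267 FPKM in the input. By size, RPTOR was at least 4-fold higher, RICTOR at least 1.5-fold higher and MLST8 at least 1.5-fold lower, a rule that 34.7% of all rows met.

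The mRNAs whose proteins form mTOR complexes therefore stood in a different order in each library. In the RIP the order was RPTOR, MTOR, MLST8 and RICTOR, with MTOR at 2.21 times the level of MLST8. In the input the order was MLST8, RPTOR, MTOR and RICTOR, with MLST8 at 31.0 times the level of MTOR. RICTOR was the lowest of these in both. The median ratio of the 3 partners was 0.67, which is the value of RICTOR, in a range from -1.67 to 2.77. The median of the 6 kinases lay 2.34 higher on the log2 scale, although RPTOR was above ATR and ATM. RICTOR and 5 of the kinases, below 0.5 FPKM in the input, could not have had a ratio below 0. No spread over libraries stands behind any of these orders.

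How rows entered the table bears on these ratios. Every row had at least 0.5 FPKM in at least 1 library, and 5 kinases (all but MTOR) and RICTOR were below 0.5 FPKM in the input, so these 6 rows are present only through their level in the RIP and could not have had a ratio below 0. The table held 2392 such rows (22.1%), with a median ratio of 1.16 and a lowest one of 0.02. Of them 21.4% passed the 4-fold rule and 85.1% the 1.5-fold rule. Within these rows PRKDC was at percentile 99.9, TRRAP at 97.7, SMG1 at 94.2, ATR at 68.5, ATM at 36.7 and RICTOR at 20.6. Only MTOR, RPTOR and MLST8 had 0.5 FPKM or more in both libraries.

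The size of the gene moved with the ratio across the whole table. When rows were split into 20 bins by the span of the locus from start to end, the median ratio was -1.45 in the bin of shortest loci (median span 2.37 kb) and 0.99 in that of the longest (median span 290 kb). The median level in the RIP was 4.29 FPKM in the shortest and 1.92 FPKM in the longest bin, and in the input it was 13.6 FPKM in the shortest and 0.348 FPKM in the longest. Across the 10836 rows, Spearman's rho with the span was 0.37 for the ratio, -0.09 for the RIP level and -0.44 for the input level, a description across genes that share both libraries. Span includes introns, and the length of the exons was not used here. The part of size in the ratios of the kinases was not tested.

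The kinases lie on long loci, between 122 kb (SMG1) and 187 kb (PRKDC), as do RICTOR (136 kb) and RPTOR (422 kb), while MLST8 spans 5.17 kb. Among the 542 rows of like span, PRKDC was at percentile 99.8, TRRAP at 96.9, SMG1 at 93.4 and MTOR at 92.8. ATR was at percentile 66.8 and ATM at 45.9. Of the partners, RPTOR was at percentile 92.8, RICTOR at 35.8 and MLST8 at 35.1. In these bins of long loci the median gene had a ratio between 0.99 and 1.06, so that PRKDC lay 4.77 and TRRAP 2.67 above genes of like span, whereas ATM lay 0.10 and RICTOR 0.39 below them. MLST8 was 0.77 below genes of its own short bin, where the median was -0.90. For PRKDC the difference from like genes was in the RIP, at percentile 99.8 of its bin, since its input level was at percentile 50.2. SMG1 differed on both sides, at percentile 81.5 of its bin in the RIP and at 8.86 in the input. In the bins that hold the kinases, 23.2% and 19.9% of rows passed the 4-fold rule.

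**Figure D2:**
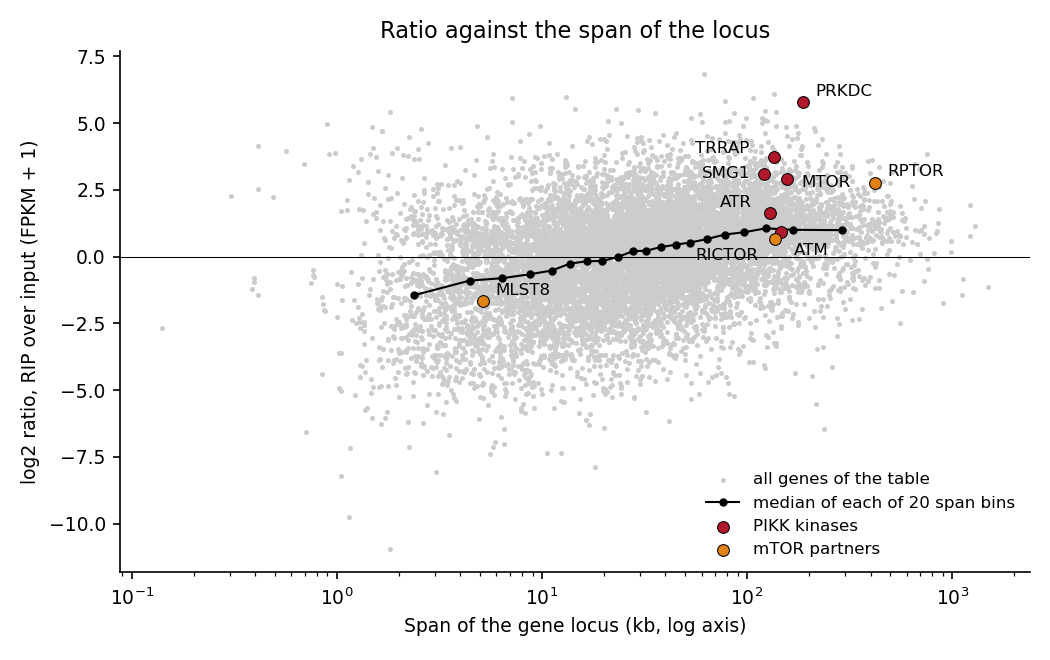
Log2 ratio of RIP over input (FPKM + 1) against the span of the locus in kb (log axis) for all 10836 rows (grey), with the median of each of 20 span bins (black line), the 6 kinases (red) and the 3 mTOR partners (orange). PRKDC at 5.78 stands far above the line, ATM and RICTOR lie just under it, and MLST8 sits among the short loci at -1.67.

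Since the kinases were scarce in the input, the amount added to FPKM set much of their ratios. Without any addition, the RIP level over the input level was 176-fold for PRKDC, 92.8-fold for SMG1, 45.0-fold for TRRAP, 18.8-fold for MTOR, 16.8-fold for ATM and 16.0-fold for ATR. For the partners it was 14.4-fold for RICTOR, 10.5-fold for RPTOR and 0.275-fold for MLST8. On this scale SMG1 stood above TRRAP, and ATM stood close to ATR and MTOR. The whole table shifted as well, since 32.6% of the 9605 rows above 0 in both libraries were past 4-fold on it, and RPTOR was at percentile 84.5 of them. ATM was at percentile 90.4 of these rows, against percentile 67.0 of all rows with 1 added. The 0.0588 FPKM of ATM in the input may rest on few reads, and no counting interval can be given. PRKDC was highest and MLST8 lowest of the 9 with every addition from 0 to 5.

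**Figure D3:**
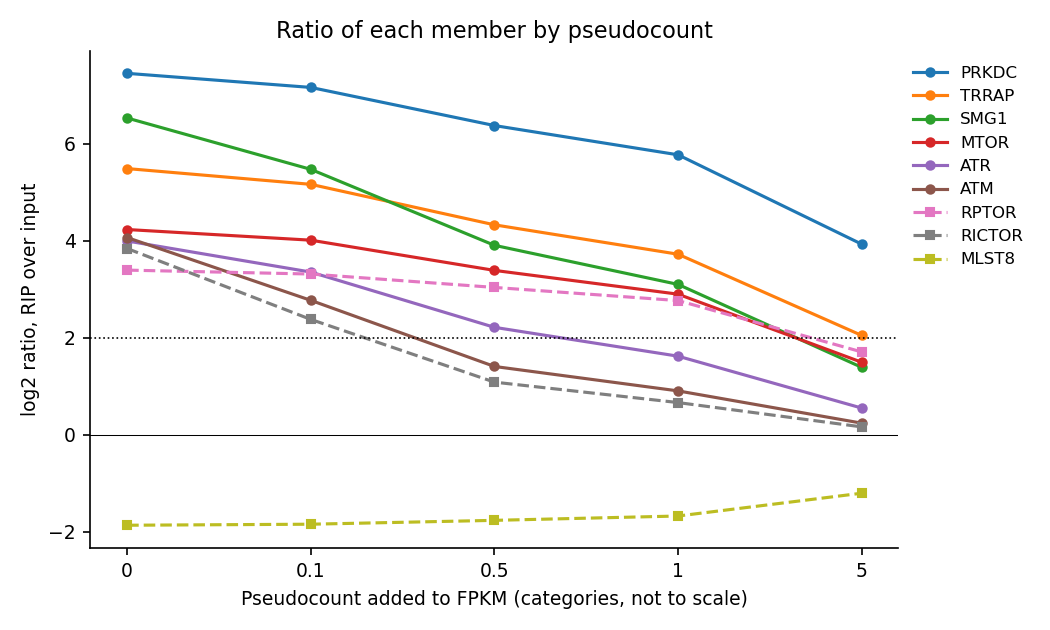
Log2 ratio of RIP over input for each of the 9 mRNAs (kinases solid, mTOR partners dashed) by the pseudocount added to FPKM, drawn as categories, with 4-fold as a dotted line. PRKDC stays on top between 7.46 (nothing added) and 3.93 (5 added), ATM and RICTOR drop to 0.24 and 0.17, and MLST8 stays below 0.

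Partner genes of the kinases were then set beside them, from lists drawn up by function. Their counts stand beside the shares of all rows, 12.5% past 4-fold and 42.6% past 1.5-fold upward, and 13.5% and 34.7% downward. No list was tested against the others. The partners of DNA-PKcs did not share the ratio of PRKDC. Of 7 genes 5 had a row, 3 were at least 1.5-fold lower and none that much higher, with a median of -1.24. The Ku subunit genes XRCC6 (135 FPKM in the RIP and 151 FPKM in the input) and XRCC5 (36.1 FPKM in the RIP and 47.3 FPKM in the input) were abundant in both libraries, with log2 ratios of -0.16 and -0.38. Both turned positive, to 0.80 and 0.57, when the libraries were rescaled to a common sum, which moved the median of all rows to 0.85. The end-joining factor genes XRCC4 (-1.24), NHEJ1 (-1.46) and C9orf142, which encodes PAXX (-1.60), were lower on both scales. DCLRE1C and LIG4 had no row.

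Genes that act beside ATM and ATR lay on both sides of 0. In the activator list (12 genes, 13 rows) 5 rows were at least 1.5-fold higher, 3 at least 1.5-fold lower and none 4-fold higher, with a median of 0.38. RAD17 (1.25), a clamp loader gene, and TOPBP1 (1.24), whose product activates ATR, were highest. Of the MRN complex, which brings ATM to DNA breaks, NBN was at 0.99, RAD50 at 0.61 and MRE11A at 0.38. ATRIP, which encodes the obligate partner of ATR, has 2 rows under different identifiers. One had 1.41 FPKM in the RIP and 0.677 FPKM in the input, and the other was listed at 0 in the RIP and at 5.08 FPKM in the input. HUS1, of the checkpoint clamp, was likewise listed at 0 in the RIP, with 1.45 FPKM in the input.

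Among the effectors of ATM and ATR 3 of 9 were at least 4-fold higher, and the median was 1.10. SMC1A, a cohesin subunit gene, had 31.9 FPKM in the RIP and 0.733 FPKM in the input (4.25), and the genes of the break-site scaffolds MDC1 (3.34) and TP53BP1 (3.06) were also past 4-fold. TP53BP1, at 0.498 FPKM in the input, entered the table only through the RIP and could not have had a ratio below 0. The checkpoint kinase genes CHEK1 (-0.30) and CHEK2 (-0.36), much smaller than the kinases that activate them, were near 0, and turned positive after rescaling. H2AFX, a histone variant phosphorylated at breaks, had 50.2 FPKM in the RIP and 188 FPKM in the input (-1.88).

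Of 8 genes that work with SMG1 in nonsense-mediated decay, 5 were at least 1.5-fold higher, 2 of them 4-fold, and 1 was at least 1.5-fold lower, with a median of 1.15. UPF1, the helicase that SMG1 phosphorylates, had 44.3 FPKM in the RIP and 3.29 FPKM in the input, a log2 ratio of 3.40. The endonuclease gene SMG6 was at 2.05, SMG5 at 1.34, UPF2 at 1.27 and SMG8 at 1.03. With 0.245 FPKM in the input, SMG6 was in the table only through the RIP and could not have had a ratio below 0. UPF3B (-0.02) and UPF3A (-0.47) lay closer to 0 and turned positive after rescaling, and SMG9, which encodes a regulator bound to SMG1, was at -0.98.

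The acetylation complexes built on TRRAP were mixed. Of 32 genes 30 had a row, and the median of -0.22 turned to 0.52 after rescaling. In each direction 4 rows passed 4-fold, near the shares of all rows (12.5% upward and 13.5% downward). EP400, a large chromatin remodeller of TIP60, had 15.1 FPKM in the RIP and 0.245 FPKM in the input (3.69), nearly the ratio of TRRAP. Like TRRAP, EP400 was below 0.5 FPKM in the input and lies on a long locus (131 kb). The SAGA deubiquitinase gene USP22 was at 3.08. The acetyltransferase genes KAT2A (0.17) and KAT5 (-0.18) were near 0, and were at 1.05 and 0.70 after rescaling. The small SAGA subunit gene ENY2 had 0.258 FPKM in the RIP and 20.6 FPKM in the input (-4.10), and YEATS4 was listed at 0 in the RIP and at 8.80 FPKM in the input.

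None of the other subunits of the mTOR complexes came near the ratio of MTOR. DEPTOR, an inhibitor of mTOR, was at 0.75, and MAPKAP1, of the rictor complex, was at 0.37. PRR5 was at -0.03, positive after rescaling, and AKT1S1, which encodes the substrate-like inhibitor PRAS40, was at -1.27. PRR5L had no row. Chaperones that fold and assemble PIKKs were led by TELO2 (1.29) and TTI1 (0.69), while TTI2 (-0.97), RPAP3 (-0.90), RUVBL2 (-0.94), RUVBL1 (-0.40) and PIH1D1 (-1.11) were lower in the RIP, of which RUVBL1 and RUVBL2 turned positive after rescaling. None of these 4 and 7 rows was past 4-fold in either direction, although TELO2 was past it at 2.18 after rescaling.

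The nutrient sensors upstream of mTORC1 included 7 of 27 rows at least 4-fold lower, against 13.5% of all rows, and 1 at least 4-fold higher. After rescaling, 3 of the 27 rows and 8.18% of all rows were at least 4-fold lower. The lowest rows were those of 2 subunits of the lysosomal anchor of mTORC1, with LAMTOR5 at 0.571 FPKM in the RIP and 40.9 FPKM in the input (-4.74) and LAMTOR2 at 1.32 FPKM in the RIP and 56.8 FPKM in the input (-4.64). TSC2, of the complex that restrains mTORC1, was at 1.64, and the Rag GTPase gene RRAGA had 8.18 FPKM in the RIP but 0 FPKM listed for the input. The list median was -0.21 and became 0.29 after rescaling, and 6 of its 33 genes had no row.

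Among substrates and effectors of mTOR, 3 of 15 rows were past 4-fold upward and 1 downward, with a median of 0.83. Of all rows, 12.5% were past 4-fold upward and 13.5% downward. AKT1, a kinase phosphorylated by the rictor complex, was at 2.97, and the translation factor gene EIF4B had 200 FPKM in the RIP and 42.1 FPKM in the input (2.22). EIF4EBP1, the translation repressor that mTORC1 inactivates, had 10.8 FPKM in the RIP and 321 FPKM in the input (-4.76), and the S6 kinase gene RPS6KB2 was at -1.61.

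The lipid kinases to which PIKKs are related all had ratios above 0, a sign fixed by entry into the table for 8 of the 13 rows. Of 13 lipid kinase and regulatory subunit genes, 12 were at least 1.5-fold higher, 3 of them 4-fold, with a median of 1.45. Of all rows below 0.5 FPKM in the input, as 8 of these 13 were, 85.1% passed the 1.5-fold rule and 21.4% the 4-fold rule. PI4K2B (2.94) and PI4KA (2.73) were highest, and PIK3C3 (0.44) and PI4KB (0.85) lowest.

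**Figure D4:**
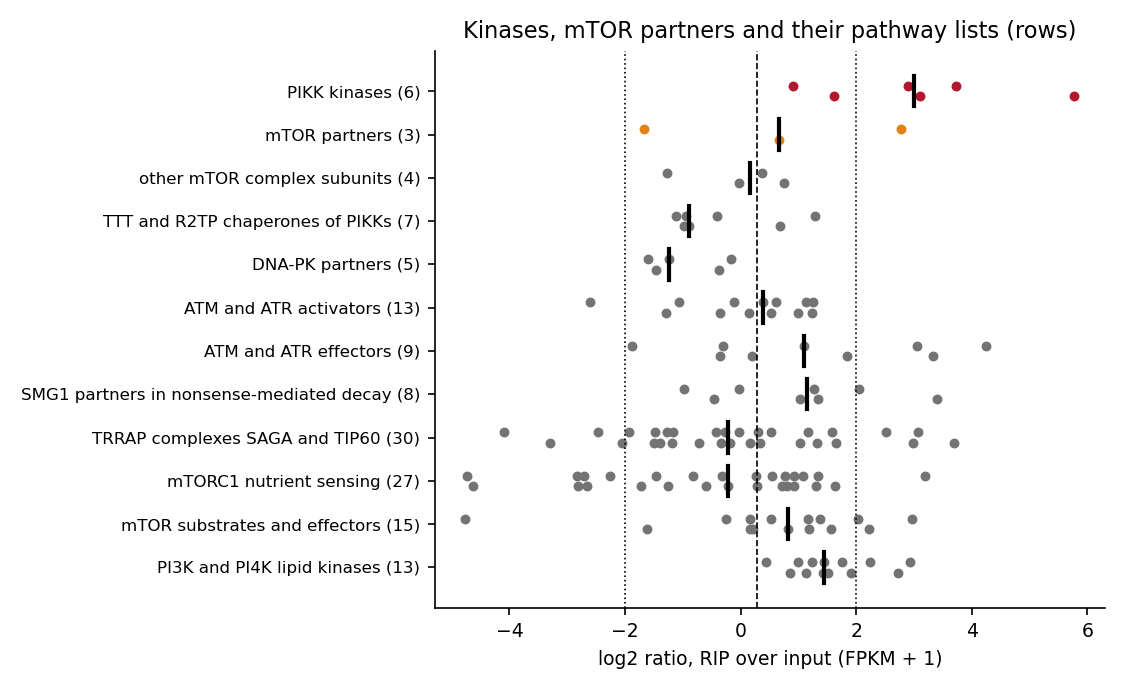
Log2 ratio of RIP over input (FPKM + 1) for each row of the kinases (red), the mTOR partners (orange) and 10 pathway lists (grey), with list medians as bars and row numbers in brackets. Dotted lines mark 4-fold and the dashed line the median of all rows, 0.28. As drawn, without rescaling, the kinases reach from 0.91 to 5.78, while DNA-PK partners and PIKK chaperones lie mostly below 0. Rescaling moved the median of the DNA-PK partners from -1.24 to -0.62 and that of the chaperones from -0.90 to 0.02. A row listed at 0 in 1 library is drawn at its value with 1 added.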

How the data were processed

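The authors deposited FPKM per gene for 1 CNBP RIP and 1 input library of HCT116 cells. Build hg19 and the tools StringTie, HISAT2, FastQC and cutadapt are listed in the submitters' processing notes. Versions and settings are not given in the sources used here. All rows were protein coding, and read depth is unknown.

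Log2 ratios used a pseudocount of 1, after the study's formula, and understate changes of low genes. Percentiles are the share of rows with a lower value. Rescaling set both libraries to the mean of their FPKM sums. Like genes were rows of the same of 20 span bins. Python 3.11.15, pandas 2.3.3 and numpy 2.4.6 were used, and the calculations were tested on simulated data.

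The members and lists were chosen with earlier results of these data known. Named were all members, the 2 highest and 2 lowest of each list, all genes of 4 partner lists, set complex partners, and the 2 rows nearest to each member. TP53BP1, C11orf65, NPAT, OSMR and BRICD5 and 5 markers were named after their values were seen. Alternatives were other pseudocounts, none at all (chosen after seeing the data), rescaling, centring, span correction, filters and leaving out members. Correction by protein length was not run. 1 listed gene is not reported here and was left out of its list.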

Additional observations from a re-analysis of the deposited data

How the results depend on the processing

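With 1 library per group the alternatives show only how values depend on the calculation. No paired analysis was possible because each group has 1 library. For the 6 kinases the median of 3.00 became 4.59, 3.65 and 1.45 with pseudocounts of 0.1, 0.5 and 5, and 4.86 with none. It was 3.60 after rescaling to the mean of the sums, 3.53 after rescaling without the 20 most abundant genes of each library, 2.72 after centring on the median gene and 1.97 after subtracting the median of genes of like span. For the 3 mTOR partners the median of 0.67 became 2.38, 1.09 and 0.17 with pseudocounts of 0.1, 0.5 and 5, 3.40 with none, 0.93 and 0.90 after the rescalings, 0.38 after centring and -0.39 after the span correction. The difference of 2.34 between these medians became 2.21, 2.56 and 1.28 with the pseudocounts, 1.47 with none, 2.67 and 2.63 after the rescalings and 2.36 after the span correction, and centring left it as it was. Leaving out 1 gene at a time gave 2.90 to 3.10 for the kinases and -0.50 (without RPTOR) to 1.72 (without MLST8) for the partners.

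Of 72 alternative values of single members, 2 changed sign, both with the span correction, where ATM was at -0.10 and RICTOR at -0.39. The count of rows at least 4-fold higher, 1352, became 3025 and 335 with pseudocounts of 0.1 and 5, 3135 with none, 2454 and 2300 after the rescalings, and 586 when 1 FPKM was required in both libraries, a filter that only RPTOR and MLST8 passed. The kinases past 4-fold were 6 with a pseudocount of 0.1, 5 after either rescaling, 2 with a pseudocount of 5 and 3 after the span correction, where MTOR (1.90) and RPTOR (1.78) were no longer past 4-fold. Since depth is unknown, no counting error can be given for the low input levels of the kinases.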

Other observations

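The rows whose levels in both libraries were nearest to each of the 9 mRNAs, by distance on log2(FPKM + 1), were as follows. Nearest to PRKDC were PTPRF, a receptor phosphatase gene (67.7 FPKM in the RIP and 0.870 FPKM in the input), and AHNAK, which encodes a giant scaffold protein (69.7 FPKM in the RIP and 1.06 FPKM in the input), at distances of 0.425 and 0.537. TRRAP had the golgin gene GOLGA4 (16.9 FPKM in the RIP and 0.382 FPKM in the input) and TCF20, a transcription coregulator gene. MTOR had the histone demethylase gene KDM4B and the cohesin gene STAG2, and SMG1 had KIAA1462 and the cadherin gene CELSR2. ATM had the phosphodiesterase gene PDE3B and the dynein adaptor gene HOOK3, and ATR had PVALB and NTN4, which encode parvalbumin and a netrin. RPTOR had ARHGAP45 and the death receptor gene TNFRSF10B, RICTOR had TRIM59 and TNXB, and MLST8 had DAP and the spindle checkpoint gene BUB3. Apart from those of PRKDC, all distances were at most 0.083, so PRKDC was farthest from its nearest rows. Distance rests on 1 library per group.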
